A study of Sus scrofa with 12 samples.

Results

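Interleukin 1 beta (IL1B) and 2 enzymes of prostaglandin synthesis, PTGS2 and PTGES, were followed between hatched and early blastocysts of the pig (Sus scrofa). The members were taken as every probe to which the platform annotation gives the symbol IL1B, PTGES or PTGS2. The 3 genes are among 12627 named on 2 array designs, and the rule found 7 of 89014 probes. The first array set held 4 of them among 43794 probes, 1 for IL1B, 2 for PTGES and 1 for PTGS2. The second array set held 3 among 45220 probes, 1 for IL1B and 2 for PTGES.

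Hatched blastocysts had been collected in vivo 5.5 days after insemination and early blastocysts 5 days after it. Each array carried RNA of both stages, one in Cy5 and the other in Cy3, and each array set had 3 arrays with hatched blastocyst in Cy5 and 3 with early blastocyst in Cy5. The labels give no breed, litter, or number of embryos behind an extract, nor which arrays share an extract, so the spread between arrays may be technical. The RNA of these small embryos was amplified in 2 rounds before labelling.

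Interleukin 1 beta is a secreted inflammatory cytokine that signals through the receptor IL1R1 and the adaptor MYD88 to the transcription factor NF-kappaB. Later in pig pregnancy, elongating conceptuses release an interleukin 1 beta of their own, encoded by a second gene, IL1B2, around the time they signal to the uterus. Among the genes that interleukin 1 induces in many cells is PTGS2 (cyclooxygenase 2), which turns arachidonic acid into prostaglandin H2. PTGES (microsomal prostaglandin E synthase) then converts prostaglandin H2 into prostaglandin E2, and PTGS1 is the cyclooxygenase that many cells hold constitutively.

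The value on each array was the deposited log ratio of the 2 stages, taken as log2. Which stage is the numerator was not settled by the labels or the values, so values are called positive or negative and neither stage is named as higher. The values were read as turned to 1 direction on all arrays. Read as not turned, no member probe passed the test, and the count of probes that did was 3 on the second array set and 1327 on the first. There were no intensities to use, so the level of any gene is unknown, and a ratio near 0 does not tell an unexpressed gene from one with the same level in both stages. In bulk embryos, fewer cells of a type and less RNA per cell cannot be told apart. Array medians lay between -0.0061 and 0.0105 on the first array set and between -0.0058 and 0.0090 on the second.

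Arrays of opposite dye orientation deviated together in pairs, with the same replicate numbers on both array sets. After the fit, the deviations of hatched in Cy5 replicate 1 correlated with those of early in Cy5 replicate 2 at 0.637 in the first set, against 0.539 in the second. For hatched in Cy5 replicate 2 and early in Cy5 replicate 1 the values were 0.720 and 0.703, and for the 2 arrays numbered 3 they were 0.374 and 0.471. These are called residual pairs 1, 2 and 3. Pair 2 stood apart from the other pairs, with mean correlations to them of 0.163 and 0.157. Whether a pair was the same RNA with the dyes exchanged was not tested. It was also not tested whether arrays of the same numbers on the 2 array sets held the same RNA. Agreement between the sets is therefore not read as replication.

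PTGES lay on the positive side of the ratio on both array sets, and IL1B lay on the negative side, past the test on the second array set only. PTGS2 did not pass the test on either. Of the member probes, 1 of 4 passed on the first array set, where 4.64% of all probes did, and it was positive on every array, as 3.51% of all probes were (4.42% were negative on every array). On the second array set 3 of 3 passed, where 6.12% of all probes did. There 2 were positive on every array and 1 was negative on every array, against 4.33% and 5.62% of all probes. The 2 PTGS2 probes of that design carry an older name and are outside this count. Neither passed (limma adjusted p 0.642 and 0.689).

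**Figure D1:**
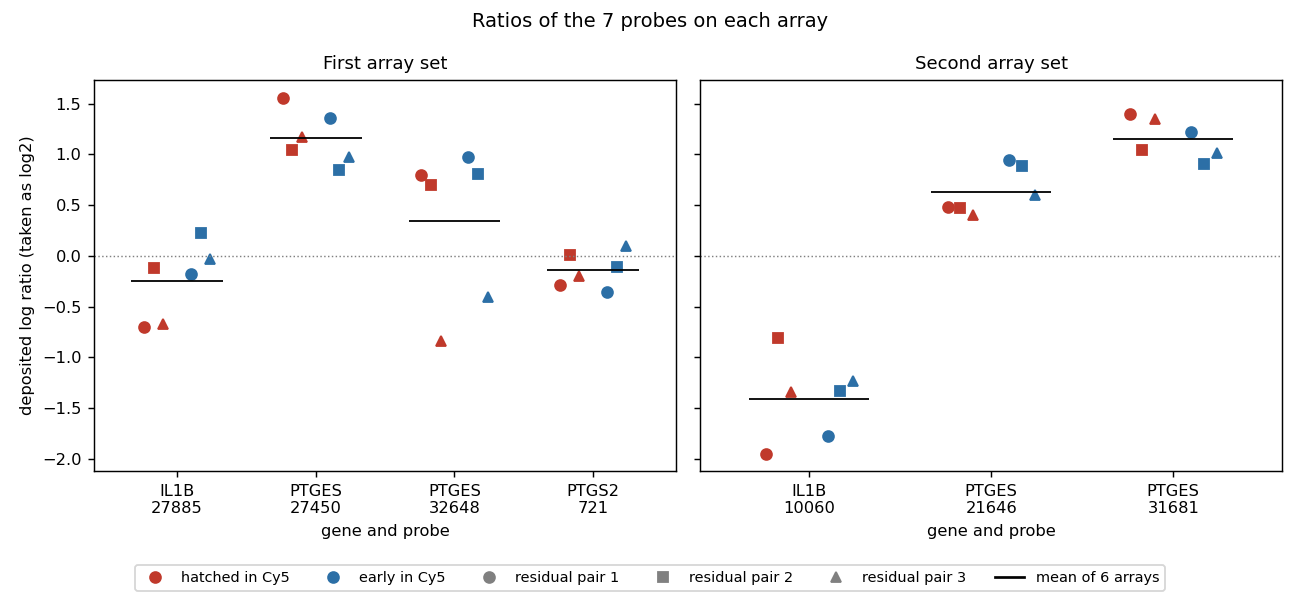
Deposited log ratio (taken as log2, vertical axis) of the 7 member probes (horizontal axis) on each of 6 arrays per array set. Red points are arrays with hatched blastocyst in Cy5, blue points arrays with early blastocyst in Cy5, shapes mark the residual pairs, and lines are means over 6 arrays. PTGES probe 27450 and the 3 probes of the second array set keep to one side of 0 on all 6 arrays, whereas PTGES probe 32648 is below 0 on both arrays of pair 3.

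For IL1B on the second array set, probe 10060 had ratios of -1.95, -0.81 and -1.34 on the arrays with hatched blastocyst in Cy5, and -1.33, -1.78 and -1.23 on those with early blastocyst in Cy5. All 6 were negative, and the 2 orientations overlapped. The fitted ratio was -1.41 ± 0.15 (SE, 6 arrays), with a 95% interval of -1.75 to -1.07 and an adjusted p of 0.00208 by limma over all probes. If the base is 2, that is a 2.65-fold difference between the stages, and 0.215% of the probes had a ratio at least as negative.

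For IL1B on the first array set, probe 27885 had ratios of -0.70, -0.12 and -0.67 with hatched blastocyst in Cy5, and 0.22, -0.18 and -0.03 with early blastocyst in Cy5. The only positive value was on an array of pair 2, and the fitted ratio was -0.25 ± 0.10 (SE, 6 arrays; limma adjusted p 0.275). Without pair 2 it was -0.40, with a limma adjusted p of 0.0265. Pair 2 was singled out in these same data, and without it 4264 probes passed, against 2032 with all arrays. That fit is therefore no independent support for a negative ratio. In the fit of all 6 arrays the dye term was itself -0.25 (limma adjusted p 0.175), as far from 0 as the ratio.

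The IL1B ratios of the 2 array sets did not overlap. They averaged -1.41 ± 0.41 on the second array set and -0.25 ± 0.37 on the first (SD, n = 6 each). The difference, second minus first, was -1.16, with an exact 2-sided permutation p of 0.00216 over the 924 splits of the 12 arrays, the smallest this design can give, and an adjusted p of 0.00433 over 2 genes. This test treats the arrays as independent and the 2 array sets as unmatched. Whether the sets held the same RNA was not tested, so its p does not measure the spread between embryos. With the mean of each residual pair as 1 value, 3 a set, the IL1B values still did not overlap, and the exact permutation p was 0.1, the smallest that 3 against 3 can give. For PTGES the same difference was 0.14, with an exact permutation p of 0.450. The IL1B probes of the designs are different probes, and which part of the transcript each reads was not tested.

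The probes of IL1B2 lie outside the rule, because the platform calls them IL-1beta, and they were matched by accession after the values were seen. The probe on the first array set had a fitted ratio of 0.02 ± 0.07, with a limma adjusted p of 0.937. The 3 probes of the second array set, 5335, 25038 and 39836, had -0.11, 0.04 and -0.06 (limma adjusted p 0.592, 0.880 and 0.845). Probe 5335 was negative on all arrays with hatched blastocyst in Cy5 (-0.43, -0.26 and -0.67) and positive on all with early blastocyst in Cy5 (0.33, 0.22 and 0.15), with a dye term of -0.34 that did not pass (limma adjusted p 0.141). Whether the IL1B and IL1B2 probes tell these similar genes apart was not tested.

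For PTGES on the first array set, probe 27450 had ratios of 1.56, 1.05 and 1.18 with hatched blastocyst in Cy5, and 0.84, 1.36 and 0.97 with early blastocyst in Cy5. All 6 were positive, and the orientations overlapped. The fitted ratio was 1.16 ± 0.10 (SE, 6 arrays; limma adjusted p 0.00169), or 2.24-fold if the base is 2, and 0.580% of the probes had a ratio at least as positive.

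The other PTGES probe of the first array set, 32648, had ratios of 0.80, 0.70 and -0.84 with hatched blastocyst in Cy5, and 0.81, 0.97 and -0.40 with early blastocyst in Cy5. Both arrays of pair 3 were negative and the other 4 were positive in a range of 0.70 to 0.97. Its fitted ratio was 0.34 ± 0.25 (SE, 6 arrays; limma adjusted p 0.625), so the 2 probes of PTGES on this design disagreed on pair 3. Their mean, the value for the gene, was 0.75 ± 0.15 with a limma adjusted p of 0.0402. Leaving out 1 array at a time kept this call in 1 of 6 fits, with adjusted p up to 0.134.

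For PTGES on the second array set, probe 31681 had ratios of 1.39, 1.04 and 1.35 with hatched blastocyst in Cy5, and 0.90, 1.23 and 1.01 with early blastocyst in Cy5. Its fitted ratio was 1.15 ± 0.08 (SE, 6 arrays; limma adjusted p 0.000512), close to that of probe 27450 on the other design. Probe 21646 had 0.48, 0.47 and 0.40 with hatched blastocyst in Cy5, and 0.89, 0.94 and 0.60 with early blastocyst in Cy5. All 6 were positive, but here the orientations did not overlap, and the dye term was -0.18 (limma adjusted p 0.313). The fitted ratio of this probe was 0.63 ± 0.08 (limma adjusted p 0.00352). The mean of both probes was 0.89 ± 0.06 with a limma adjusted p of 0.000552, and the call was kept in 6 of 6 fits without 1 array.

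The 4 called member probes had an exact sign-flip p of 0.03125 each, the smallest that 6 arrays allow. When each residual pair was averaged and counted as 1 sample, their fitted ratios stayed as they were and none passed the threshold. The limma adjusted p was then 0.0780 for IL1B probe 10060, 0.0972 for PTGES probe 27450, and 0.0924 and 0.0608 for PTGES probes 21646 and 31681. With the pairs as a random block instead, all 4 passed. Each array set was spread over a slide of 2 arrays and a slide of 4, both with arrays of either orientation. Within the slide of 4, the ratios of IL1B probe 10060 and PTGES probes 27450, 21646 and 31681 were -1.29, 1.14, 0.60 and 1.16 (limma adjusted p 0.0166, 0.0125, 0.0454 and 0.0125), and with slide as a fixed term they were -1.47, 1.17, 0.64 and 1.15 (adjusted p 0.00954, 0.0133, 0.0165 and 0.00524). On the slide of 2 their means were -1.64, 1.20, 0.68 and 1.15, with no test.

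**Figure D2:**
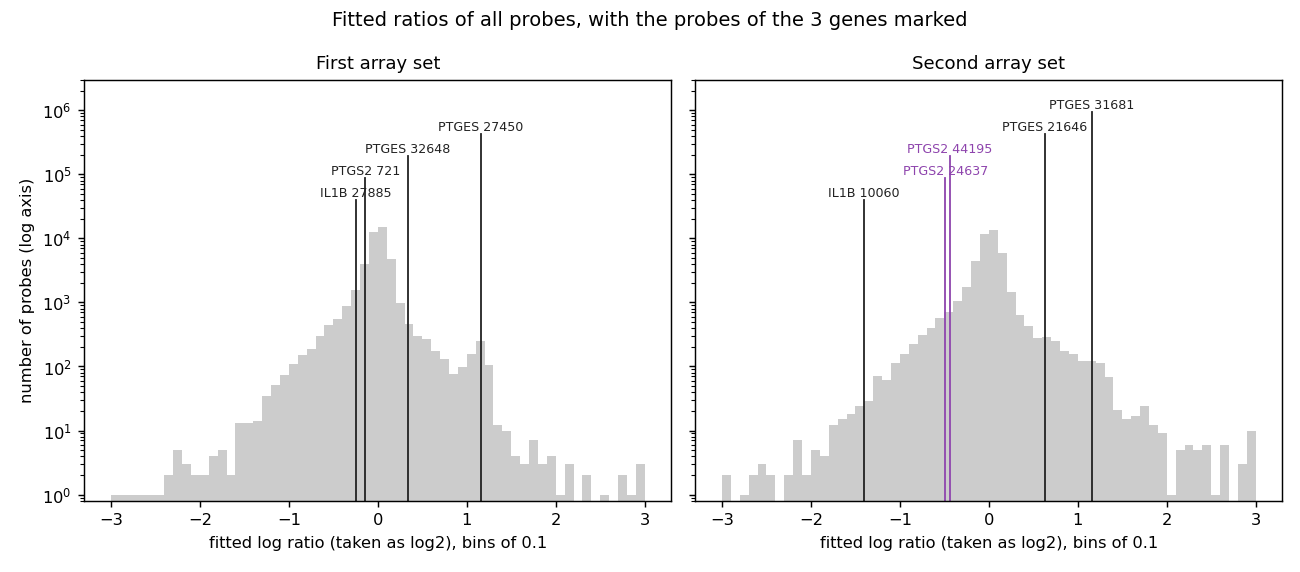
Number of probes (vertical axis, log scale) by fitted log ratio (horizontal axis, taken as log2, bins of 0.1, values beyond 3 on either side put in the outermost bins). Black lines mark member probes, purple lines mark PTGS2 probes matched by accession, and the height of a line carries no meaning. IL1B probe 10060 (-1.41) lies far out on the negative side and PTGES probes 27450 (1.16) and 31681 (1.15) lie on a shoulder of the positive side.

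For PTGS2 on the first array set, probe 721 had ratios of -0.28, 0.0052 and -0.19 with hatched blastocyst in Cy5, and -0.11, -0.35 and 0.10 with early blastocyst in Cy5. Its 95% interval ran from -0.32 to 0.04 around -0.14 ± 0.08 (SE, 6 arrays; limma adjusted p 0.479). The second array set had no probe under the symbol PTGS2, but 2 probes under the older name PGHS-2 matched its accession and are described here as chosen after their values were seen.

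These 2 probes split by residual pair. Probe 24637 had -1.41, 1.13 and -0.41 with hatched blastocyst in Cy5, and 0.56, -2.19 and -0.62 with early blastocyst in Cy5. Probe 44195 had -1.65, 1.08 and -0.11 with hatched blastocyst in Cy5, and 0.60, -1.98 and -0.57 with early blastocyst in Cy5. In both, the 2 arrays of pair 2 were positive, those of pair 1 were the most negative, and those of pair 3 lay between. The fitted ratios over 6 arrays were -0.49 ± 0.39 and -0.44 ± 0.39 (limma adjusted p 0.642 and 0.689). Without pair 2 they were -1.16 and -1.08 (limma adjusted p 0.0269 and 0.0528). Pair 2 was singled out in these same data and holds the positive values, so these fits are no independent support for a negative ratio. The SD over arrays was 1.22 and 1.21, a spread that 0.874% and 0.893% of the probes of this design reached. Probe 721 of the first array set did not show this split, with 0.0052 and -0.11 on the arrays of its pair 2.

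**Figure D3:**
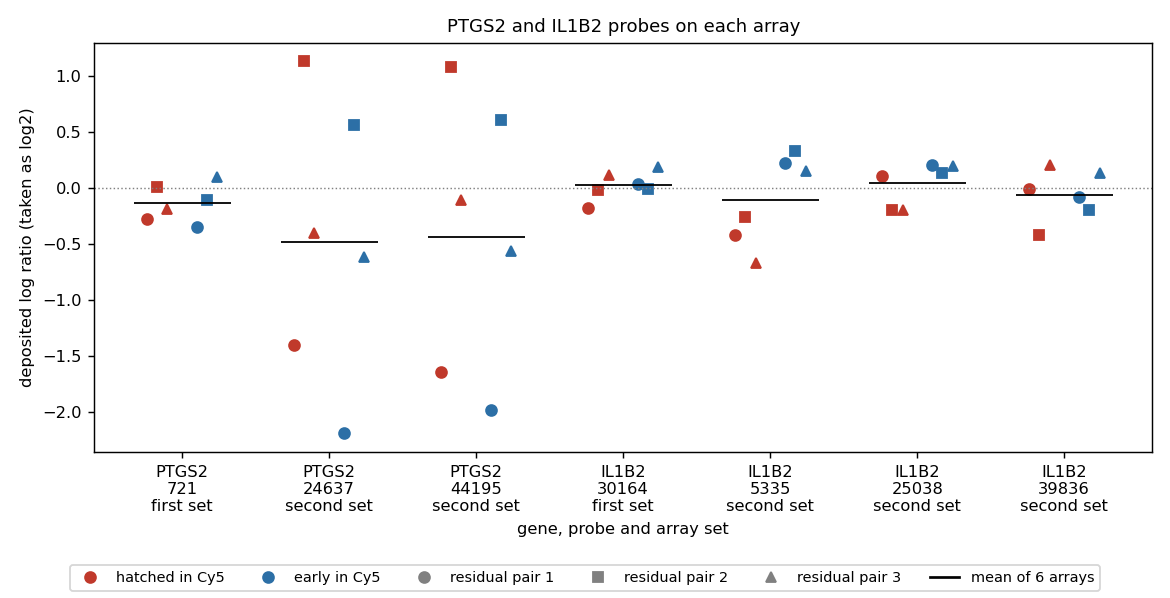
Deposited log ratio (taken as log2, vertical axis) of the PTGS2 and IL1B2 probes (horizontal axis) on each of 6 arrays, with colours for the stage in Cy5, shapes for the residual pairs and lines for means over 6 arrays. PTGS2 probes 24637 and 44195 are positive on both arrays of pair 2 and negative on the other 4, whereas the IL1B2 means lie between -0.11 and 0.04.

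Around the members, 101 genes in 7 lists were looked up, each gene as the mean of its probes, and 80 were measured on at least 1 array set. Of these, 12 passed on at least 1 array set, and PTGES, IL18 and IL6 passed on both, on the same side. Passing on both may be technical repetition, because the sets may hold the same RNA. The share of all genes that passed on at least 1 array set, or on both, is not given here. These counts therefore have no background to be read against, and the shares that follow are per array set. Among all genes 4.75% passed on the first array set (2.38% positive and 2.38% negative) and 11% on the second (5.27% positive and 5.72% negative). An unadjusted limma p under 0.05 was reached by 2034 of 11913 genes on the first array set and 1075 of 4531 on the second. List counts at that unadjusted threshold are to be read beside these.

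In prostaglandin synthesis, 1 of 10 measured genes passed on the first array set, PTGES. The list's median ratio was 0.02, and that of all genes was 0.0027. The prostaglandin D synthase HPGDS stood at 0.10 (limma adjusted p 0.394) and the thromboxane synthase TBXAS1 at -0.10 (adjusted p 0.432). On the second array set 2 of 9 passed, both positive, with a list median of 0.0089 and 0.0050 for all genes. They were PTGES and PTGES2, a membrane-associated prostaglandin E synthase, at 0.25 ± 0.06 (limma adjusted p 0.0374). The probes of PTGES2 stood at 0.48 and 0.03. Its call was lost in each of 6 fits without 1 array and with the pairs as a random block (adjusted p 0.106). PTGS1 stood at -0.11 (limma adjusted p 0.466) and PTGS2 at -0.46 (adjusted p 0.583).

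In prostaglandin breakdown and transport, 0 of 5 genes passed on the first array set and 1 of 3 on the second, with medians of 0.07 and 0.05. On the first array set 2 of the 5 had an unadjusted limma p under 0.05, HPGD and SLCO2A1. The gene that passed was PTGR1, a reductase that inactivates leukotriene B4 and 15-keto-prostaglandins. It stood at -0.65 ± 0.07 (limma adjusted p 0.00262). Its probes 34053 and 39605 stood at -0.52 and -0.77, negative on all 6 arrays each, and only 39605 passed alone (limma adjusted p 0.0593 and 0.00163). The call of the gene was kept in 6 of 6 fits without 1 array. On the first array set PTGR1 had 0.07 ± 0.06 (limma adjusted p 0.640), and the difference between the array sets was not tested. HPGD, which oxidizes prostaglandin E2, stood at 0.17 on the first array set, with 0.05 on the second (limma adjusted p 0.239 and 0.732). The transporter SLCO2A1 stood at -0.20 and 0.09 (limma adjusted p 0.149 and 0.464). PTGR2, another reductase of 15-keto-prostaglandins, was at -0.58 ± 0.29 on the first array set (limma adjusted p 0.380).

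Among prostanoid receptors, 0 of 7 passed on the first array set and 2 of 4 on the second, 1 on each side, with medians of -0.02 and 0.03. On the first array set 1 of the 7, the thromboxane receptor TBXA2R (-0.17), had an unadjusted limma p under 0.05. PPARD, at 0.18 as a gene there (limma adjusted p 0.357), had probes that passed on opposite sides. These were 29108 at 1.21 and 16011 at -0.43 (limma adjusted p 0.0184 and 0.0257), and its other probes had -0.03 and -0.04. On the second array set PTGFR, the receptor of prostaglandin F2 alpha, stood at 0.33 ± 0.08 (limma adjusted p 0.0395). This came from probe 19046 at 1.16, while its other probes had -0.11 and -0.06. PPARG, a nuclear receptor that binds prostaglandin derivatives, stood at -0.43 ± 0.11 (limma adjusted p 0.0447). With the residual pairs modelled as a random block neither passed, at adjusted p 0.0892 and 0.0747. In the lipoxygenase branch, which makes leukotrienes from the same arachidonic acid, 1 of 6 passed on the first array set and 0 of 2 on the second, with medians of 0.0070 and 0.07. On the second array set 1 of the 2, ALOX15 (0.24), had an unadjusted limma p under 0.05.

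The lipoxygenase-branch gene that passed was LTA4H, the hydrolase that makes leukotriene B4. Its ratios were 1.41, 1.74 and 0.14 with hatched blastocyst in Cy5, and 1.63, 1.50 and 0.34 with early blastocyst in Cy5. All 6 were positive, and both arrays of pair 3 were the lowest, as for PTGES probe 32648. The fitted ratio was 1.13 ± 0.24 (SE, 6 arrays; limma adjusted p 0.0465), and the call was kept in 1 of 6 fits without 1 array.

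Among interleukin 1 ligands, receptors and processing genes, 1 of 10 passed on the first array set and 2 of 7 on the second, all negative, with medians of 0.02 and -0.06. Beside IL1B this was IL18, a cytokine of the same family that caspase 1 also cuts, at -0.39 ± 0.07 on the first array set, with -0.30 ± 0.08 on the second (limma adjusted p 0.0258 and 0.04998). With the pairs as a random block its adjusted p was 0.0620 and 0.0998. Without 1 array its call was kept in 1 of 6 fits on the first array set and 0 of 6 on the second. Its probes on the second, at -0.31 and -0.28, did not pass alone (limma adjusted p 0.285 and 0.151). On the first array set the inflammasome sensor NLRP3 stood at 0.24 (limma adjusted p 0.0949) and IL1A, interleukin 1 alpha, at -0.10 (adjusted p 0.380). On the second array set IL1A had -0.20 (limma adjusted p 0.221) and IL18R1, a receptor chain of interleukin 18, 0.08 (adjusted p 0.597). At an unadjusted p under 0.05 there were 3 of 10 genes on the first array set and 2 of 7 on the second.

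Among genes of interleukin 1 signalling to NF-kappaB, 1 of 16 passed on the first array set and 1 of 14 on the second, with medians of about 0 and -0.07. IRAK2, a kinase of the receptor complex, stood at 0.62 ± 0.12 on the first array set (limma adjusted p 0.0360), from 1 probe at 1.20 and another at 0.03. TAB1, a partner of the kinase MAP3K7, stood at -0.32 ± 0.08 on the second (limma adjusted p 0.0464) and at 0.18 on the first (adjusted p 0.491). Its call was lost in each of 6 fits without 1 array and with the pairs as a random block (adjusted p 0.0892). NFKBIA, an inhibitor that NF-kappaB itself induces, had 0.36 ± 0.11 on the first array set, with -0.12 ± 0.07 on the second (limma adjusted p 0.142 and 0.368). Its probes stood at -0.06, 1.07 and 0.06 on the first array set and at 0.01, 0.05 and -0.42 on the second. The kinase subunit IKBKG stood at -0.26 on the first array set (limma adjusted p 0.243), and the receptor kinases IRAK4 and IRAK1 at -0.24 and 0.15 on the second (adjusted p 0.149 and 0.178). At an unadjusted p under 0.05 there were 3 of 16 and 3 of 14 genes.

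Among known targets, 2 of 19 passed on the first array set, 1 on each side, and 1 of 17 on the second, negative, with medians of 0.04 and 0.02. IL6, a cytokine that interleukin 1 induces in many cells, stood at -2.63 ± 0.19 and -1.45 ± 0.13 (limma adjusted p 0.00142 and 0.00181). It was negative on all arrays of both array sets. The value of the first array set came from 1 probe. On the second its probes stood at -1.25, -2.69 and -0.41, the last not past the test (limma adjusted p 0.0642). SOD2, the mitochondrial superoxide dismutase, stood at 0.44 ± 0.08 on the first array set (limma adjusted p 0.0292) and 0.12 ± 0.08 on the second (adjusted p 0.419). The second value is a mean of 7 probes that ran from -0.21 to 0.42, of which probe 28277 (0.40) passed alone (limma adjusted p 0.0496). SOD2 did not pass on the first array set once the pairs were a random block (adjusted p 0.0548). PLAU, the urokinase plasminogen activator, stood at -0.24 ± 0.07 and -0.14 ± 0.06 (limma adjusted p 0.123 and 0.178), and the adhesion molecule ICAM1 at -0.19 ± 0.07 and -0.25 ± 0.12 (adjusted p 0.187 and 0.253), both below 0 in both fits without passing. On the second array set the colony-stimulating factor CSF3 and the chemokine CCL20 stood at 0.28 and 0.21 (limma adjusted p 0.134 and 0.159). At an unadjusted p under 0.05 there were 6 of 19 targets on the first array set and 4 of 17 on the second. Among all genes the counts were 2034 of 11913 and 1075 of 4531.

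**Figure D4:**
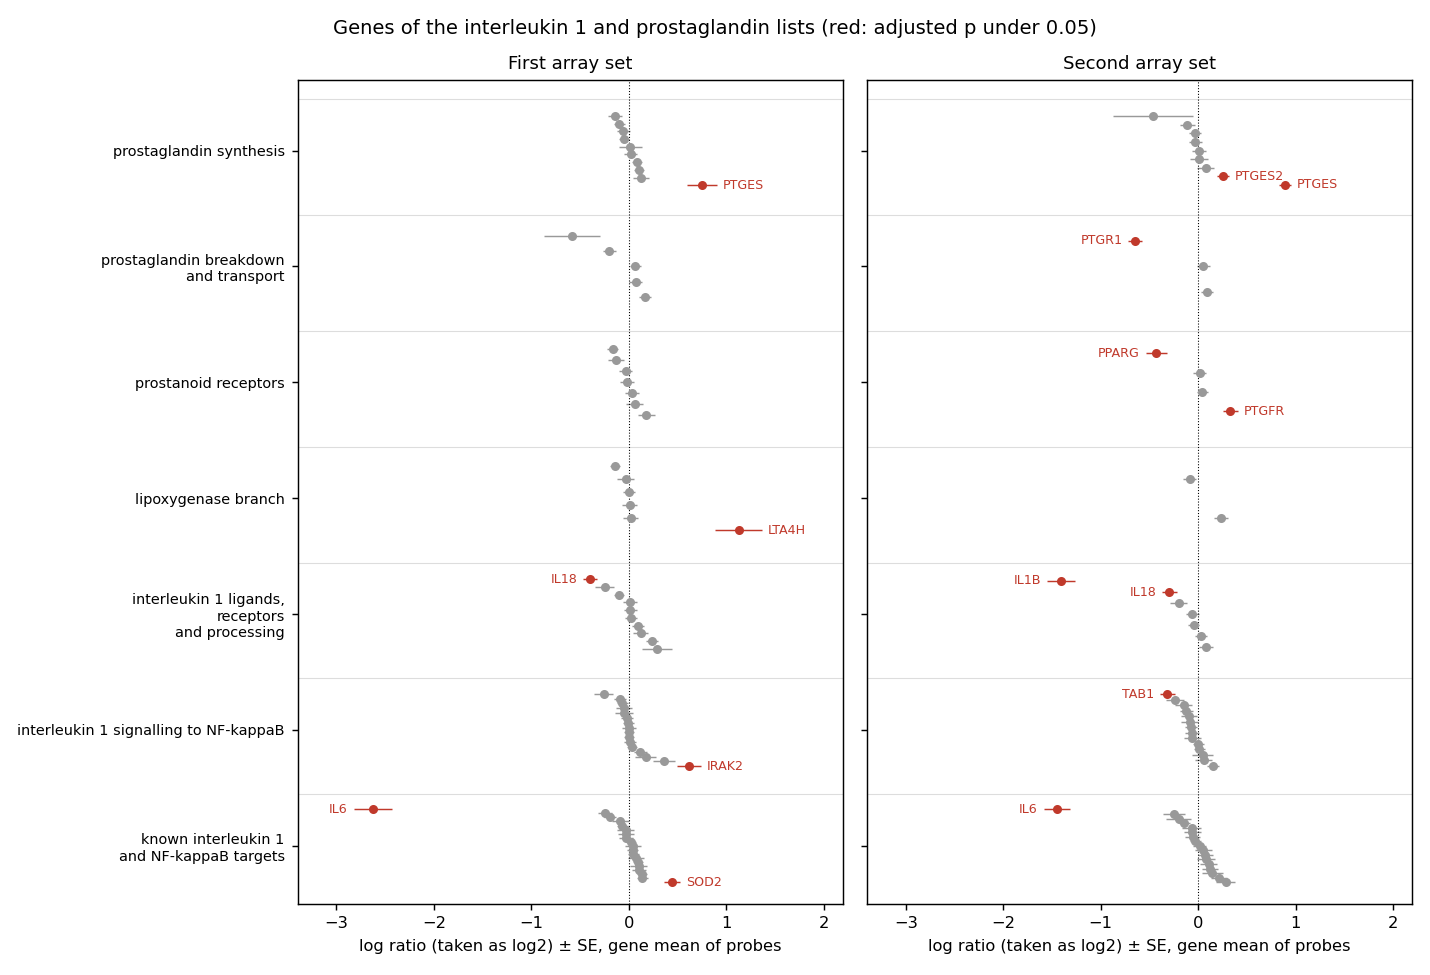
Gene-level log ratio (taken as log2, horizontal axis) ± SE over 6 arrays of every measured gene of the 7 lists (rows, sorted by ratio within a list), with genes at a limma adjusted p under 0.05 in red. PTGES, IL18 and IL6 are red on both array sets, and most other genes lie close to 0.

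A shoulder of the positive side holds some of the called list probes. On the first array set 517 probes had a fitted ratio of 1 to 1.3, against 160 in the same range on the negative side, and on the second array set the counts were 360 and 248. The unnamed probes in this range shared a profile over the arrays, whose median on the first array set was 1.53, 0.93 and 1.99 with hatched blastocyst in Cy5 and 0.06, 0.97 and 1.37 with early blastocyst in Cy5. IRAK2 probe 33920, PPARD probe 29108 and PTGFR probe 19046 had root mean square distances of 0.145, 0.159 and 0.147 to their array set's profile, and LTA4H, in the same range of ratios, had 1.14. PTGES probes 27450 and 31681 were at 0.515 and 0.483. The unnamed probes in this range had a median distance of 0.207 and a 95th percentile of 0.803 on the first array set, with 0.273 and 0.952 on the second. Both PTGES probes lay above these medians and above the limit of 0.4 used for closeness, but below the 95th percentiles. The profile was drawn from probes with ratios of 1 to 1.3, so a probe in that range is near it partly through this choice. PTGES probe 21646, at a ratio below this range, was at 0.926. This comparison was chosen after the values were seen.

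The genes whose 6 ratios ran most like those of a member were named by Pearson's r over the 6 arrays of a set, which share their amplification and dyes. For PTGES they were POLDIP3 (0.998), DDB1 (0.993) and APOC2 (0.991) on the first array set and CTSD (0.969), PCK2 (0.965) and P14ARF (0.941) on the second. Of these, APOC2, an apolipoprotein, stood at 1.52 ± 0.28, CTSD, a lysosomal protease, at 0.99 ± 0.09 and PCK2, a mitochondrial enzyme of gluconeogenesis, at 0.74 ± 0.13 (limma adjusted p 0.0269, 0.00189 and 0.0124). POLDIP3, DDB1 and P14ARF stood at -0.19, -0.12 and 0.07 (limma adjusted p 0.785, 0.743 and 0.559). The PTGES values compared were means of 2 probes. On the first array set probe 32648, which was not called, had an SD of 0.76 over arrays, against 0.26 for the called probe 27450. For IL1B the most alike genes were DMKN (0.991), IL17RD (0.986) and CPSF7 (0.985) on the first array set and NKTR (0.985), JMJD1C (0.979) and TMEM14A (0.971) on the second, the lowest limma adjusted p of these being 0.341. For PTGS2 they were DHX36 (0.992), WDR77 (0.964) and SPEF1 (0.956) on the first array set and CAT (0.997), TFAM (0.996) and ZFAND5 (0.996) on the second. An r above 0.9 was reached with IL1B, PTGES and PTGS2 by 165, 86 and 37 of 11030 genes on the first array set, and by 60, 24 and 305 of 4274 genes on the second.

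Markers of other cells that such samples could hold were read from the same gene fits. For comparison, 4.75% of all genes passed in the first set, against 11% in the second. The marker lists are short, so their counts are to be read beside these shares. Whether such cells were present was not tested. Of blood and immune cell markers, 0 of 7 passed on the first array set (ratios of -0.24 to 0.08) and 0 of 8 on the second (-0.22 to 0.12). Of cumulus and granulosa cell markers, 0 of 6 passed on the first array set and 2 of 5 on the second (AMH and STAR, positive), and of oviduct and uterine epithelium markers 0 of 8 and 1 of 6, which was ACP5. Of sperm markers 0 of 2 and 0 of 4 passed. At an unadjusted limma p under 0.05, these lists, where 0 passed, held 1 cumulus and granulosa cell marker on the first array set and 0 others. Across every gene of the first set, 2034 of 11913 reached that unadjusted threshold, against 1075 of 4531 genes of the second. Of trophectoderm markers, 3 of 7 passed on the first array set (GATA2, KRT8 and KRT18, all positive) and 3 of 5 on the second (GATA2 and KRT8 positive, TFAP2C negative). Of inner cell mass and epiblast markers, 1 of 3 passed on the first array set (SALL4, negative) and 0 of 4 on the second. Of hypoblast markers, 0 of 2 passed on the first array set and 1 of 2 on the second (GATA6, negative). The part of these cells in the ratios of PTGES and IL1B was not tested.

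**Figure D5:**
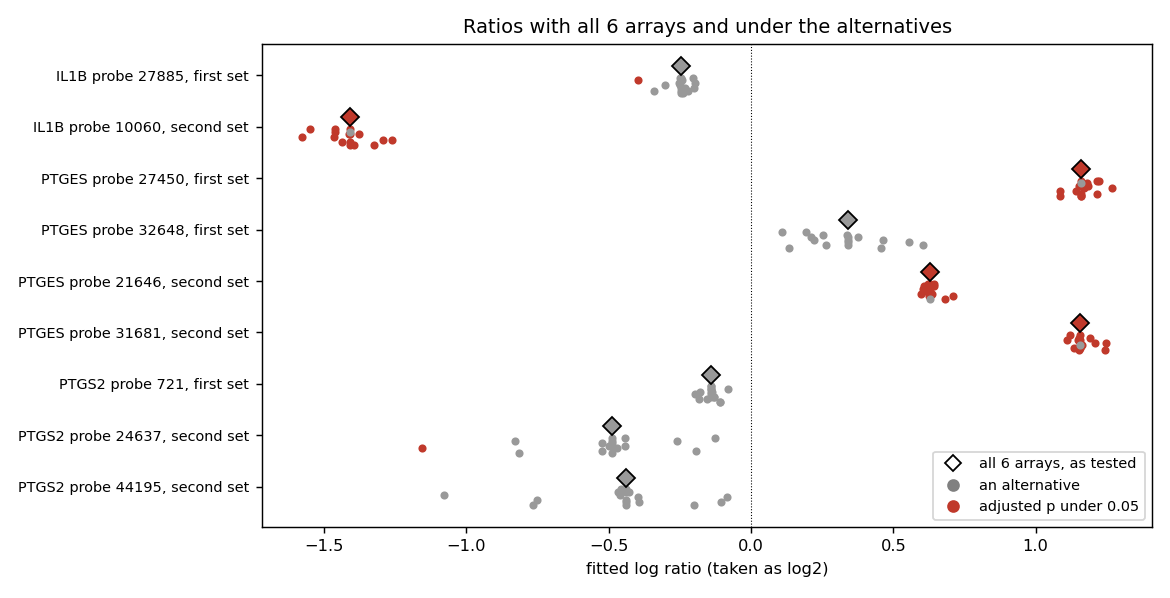
Fitted log ratio (taken as log2, horizontal axis) of the member probes and the 2 PTGS2 probes matched by accession (rows), with all 6 arrays (diamonds) and under the alternatives (points), except the reading of the ratios as not turned. Red marks a limma adjusted p under 0.05. The ratios of IL1B probe 10060 and of PTGES probes 27450, 21646 and 31681 keep their side of 0, and each has 1 grey point, the averages of the residual pairs.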

How the data were processed

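The authors deposited 1 log ratio per probe and array, used here as log2. Per the labels' protocols, RNA was extracted with PicoPure, amplified with RiboAmp HS Plus and labelled with ULS dyes for Agilent slides. How the scans were corrected and normalized, the log base and the numerator were not stated by any label or file header. Values of the second array set reach -12.7 and 12.2, too wide for log10 (natural logs were not tested). The values were read as already turned to 1 direction: over 3817 genes on both array sets, the part shared by both dye orientations correlated at 0.489 between the sets (Spearman 0.395), and the part that follows the dyes at 0.179 (0.170). With only ratios, no signal over background could be given, and the number of arrays limits the precision.

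Probes were named from the platform annotation (18121 of 43794 and 10290 of 45220 with 1 symbol, 0 with several). Symbols were updated through RefSeq genes of Sscrofa11.1, used for names only. This gave 11913 and 4531 genes. No build is named for the arrays, so no coordinates or sequences are printed.

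limma 3.58.1 (R 4.3.3) was run per array set, on all probes and on gene means of probes, with terms for stage and dye orientation, Benjamini-Hochberg adjustment over the whole table and a threshold of 0.05. The code was tested on simulated data with independent noise on each array. The arrays here deviated together in pairs, so that test does not show how many calls here are false. Named genes were the members, list genes past the threshold, up to 4 genes of smallest p per list, and the 3 most alike genes per member; not all of the third kind are described. The members and lists were chosen with earlier results of these data known. Alternatives covered scaling, the dye term, slides, residual pairs, the turning of ratios and each array left out.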

Additional observations from a re-analysis of the deposited data

Results flagged for a closer look

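The IL1B ratio differed between the array sets by -1.16 (second minus first), with means of -1.41 ± 0.41 on the second and -0.25 ± 0.37 on the first (SD, n = 6 each; exact permutation p 0.00216, adjusted 0.00433 over 2 genes). All 6 values of the second array set lay below all 6 of the first. This counts each array as 1 sample and the array sets as unmatched. With the mean of each residual pair as 1 value, 3 a set, the values still did not overlap. The exact permutation p was then 0.1, the smallest that 3 against 3 can give. Whether the sets held the same RNA was not tested. No array of a member probe stood apart from the other 5 of its set by Dixon's test.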

How the results depend on the processing

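The labels number no replicates, so no pairing by label was fitted, and the residual pairs used as a random block and as averages came from the data. IL1B probe 10060 and PTGES probes 27450, 21646 and 31681 kept their side and call under 16 of 18 alternatives each. The exceptions were pair averages (-1.41, 1.16, 0.63 and 1.15, adjusted p 0.0780, 0.0972, 0.0924 and 0.0608), which leave 3 samples, and ratios read as not turned (0.0407, 0.10, -0.18 and 0.11, IL1B probe 10060 and PTGES probe 21646 on the other side). PTGES probe 32648 was then at -0.12. Pair averages left the IL1B difference between the array sets at -1.16, no longer past the threshold. IL1B probe 27885 passed without pair 2 (-0.40), a pair singled out in these same data. Leaving out 1 array, the ratios ran from -1.55 to -1.26, 1.09 to 1.21, 0.60 to 0.68 and 1.11 to 1.21, and for IL1B probe 27885 and PTGES probe 32648 from -0.34 to -0.20 and 0.19 to 0.60.

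On the first array set 2032 probes and 566 genes passed, and on the second 2766 and 498. Pair averages gave 1, 0, 41 and 4, and slide as a random block gave 5181, 1777, 5323 and 1036. With slide as a fixed term, chosen after seeing the data, they were 866, 249, 1501 and 290, within the slide of 4 arrays 1218, 243, 1222 and 210, and not turned 1327, 118, 3 and 0. Without pair 2 they were 4264, 1166, 5448 and 785. Without 1 array they ranged from 679 to 2443, 197 to 610, 1307 to 3348 and 255 to 578. With slide as a random block, the fitted correlation of arrays on 1 slide was negative (-0.175 and -0.150 for probes, -0.186 and -0.169 for genes). The SE of PTGES probe 27450 was then 0.067, against 0.096 without a block. The cause of the differences in these counts was not tested.

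The 7 lists had 0 to 2 genes past the threshold on either array set, 0 under pair averages and 0 when not turned. Elsewhere the counts were 1 to 5 with slide as a random block (5 being targets on the first array set, 3 interleukin 1 genes on the first and 3 signalling genes on the second), 0 to 2 with 1 array or pair 2 left out, and 0 to 2 under the others. Calls of PTGES (gene mean, first array set), LTA4H, IL18, SOD2, PTGES2, PPARG and TAB1 were kept under 5 to 7 of 18 alternatives, and those of IRAK2 and PTGFR under 10 and 8.

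Not turned, other ratios changed side: on the first array set IL1B2 (-0.0492), the mean of PTGES (-0.0095), LTA4H (-0.0289), IL6 (0.31) and SOD2 (-0.0309), and on the second PTGS2 probes 24637 and 44195 (0.26 and 0.21) and their mean (0.24), the means of IL1B (0.0407) and PTGES (-0.0361), PTGES2 (-0.22), PTGR1 (0.0066), PPARG (0.0595), IL18 (0.0814) and TAB1 (0.0575). IL1B2 on the first array set also changed side with slide as a fixed term (-0.0084) and without replicate 3 of either orientation, within a range of -0.0149 to 0.0591 over the fits without 1 array.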
